A study of Mus musculus with 27 samples.

Results

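The entries described here are the 3p arms of the mouse miRNAs numbered from miR-6896-3p to miR-7094-3p, a block of the miRNA catalogue that is rich in mirtrons. Every entry named miR-N-3p in that range, with or without a letter after the number, was taken. This gave 201 of the 1842 mature miRNA entries in the count table, and none was chosen by its values. Of the 201, 172 had a mean of at least 5 CPM (counts scaled to a common library size) over the 27 libraries, and 175 passed the filter on low counts and were tested. At the 5 CPM line, miR-6967-3p (5.35 CPM) and miR-6897-3p (5.06 CPM) lay just inside, and miR-6963-3p (4.998 CPM) and miR-7073-3p (4.98 CPM) just outside.

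A mirtron is a miRNA whose precursor hairpin is made by splicing. The spliceosome cuts out a short intron, its lariat is opened and the RNA folds into a hairpin that Dicer can cut, so that the Drosha step of ordinary miRNAs is bypassed. In a tailed mirtron the hairpin sits at one end of a longer intron. When it sits at the 3′ end, the 3p arm ends where the intron ends, at the AG of the splice acceptor, and carries the pyrimidine-rich stretch that precedes it.

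The libraries were small RNA from cortex of wild-type C57BL6 mice aged 7-8 weeks. In the stroke groups a suture closed the right middle cerebral artery for 35 min (middle cerebral artery occlusion, MCAO), and cortex was taken after 3, 6, 12 or 24 h of recovery. The occluded hemisphere is called ipsilateral and the opposite one contralateral. Sham mice had the arteries exposed under anaesthesia for the same period with no filament inserted. The 9 groups (sham, and each hemisphere at 4 times) held 3 libraries each, with each replicate number standing for a distinct day of surgery. Whether both hemispheres of one number came from the same animal, and whether animals were pooled, was not stated in the labels. Groups are written contra_3h, ipsi_3h and so on in the plots.

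Libraries held between 856591 and 1903416 counts in total, and the 201 entries held between 0.40% and 2.53% of them. Most of the entries were rare: the median of their means was 9.62 CPM, 103 lay under 10 CPM, 8 reached 100 CPM, and 0.737% of their values were 0. All levels below are CPM scaled by TMM factors. The 4 neuronal miRNAs checked for the tissue label (miR-9-5p, miR-124-3p, miR-128-3p and miR-138-5p) summed to between 64600 and 193475 CPM in every library. A list of 4 epithelial miRNAs (miR-182-5p, miR-183-5p, miR-200a-3p and miR-200b-3p) stood apart in 2 libraries, sham replicate 2 with 25763 CPM and ipsilateral 6 h replicate 3 with 23303 CPM, against at most 905 CPM elsewhere.

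RefSeq gave a mature sequence for 177 of the 201 entries. The 12 printed here are members with calls described below, followed by the abundant miR-6944-3p, miR-6927-3p and miR-7087-3p, which had none in the main comparison. They are written 5′ to 3′, with the seed (bases 2 to 8, the part that pairs with a target) in capitals, and with the final AG in capitals where the arm ends in it.
miR-7046-3p: uGAACCACccaucccccuacAG
miR-7045-3p: uCUCCCCCcucccccgcacAG
miR-6941-3p: cUAACUCGgcugcucccaaAG
miR-7034-3p: uUGGCCUUccuucccuacccuaca
miR-7009-3p: uCUUUUCCccucucccugcAG
miR-6959-3p: cUGCACCGaccugcucucccAG
miR-7091-3p: aGUGGCUUcugucgucucuAG
miR-6936-3p: cGGCGCGCgcggucgcucacc
miR-6921-3p: uGACUACUccuugccucucAG
miR-6944-3p: uAACUCUUcccuugugcccucAG
miR-6927-3p: cCUGAGCUggcuccccugcAG
miR-7087-3p: uGCUGGCUcucuccccugccAG

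Positions are on GRCm38.p6, and introns are those of GENCODE M21. The highest member, miR-7046-3p, lay on the minus strand at chr7:24970010-24970031 and ended with a 77-base intron of Rabac1, the gene of a Rab acceptor protein. Further short introns held miR-7009-3p (chr3:36475461-36475481, minus strand, a 112-base intron of Anxa5, annexin A5) and miR-6921-3p (chr11:60200538-60200558, minus strand, a 97-base intron of Srebf1, a regulator of lipid synthesis). Also short was the 91-base intron of Tmem120a, where miR-7034-3p (chr5:135735807-135735830, minus strand) stopped 1 base before the intron's end. Longer introns held miR-7045-3p (chr6:125097066-125097086, plus strand, an 826-base intron of the chromatin remodeller gene Chd4) and miR-6941-3p (chr12:112920483-112920503, minus strand, a 1517-base intron of the Notch ligand gene Jag2). An intron of 337 bases in Sbf1 ended with miR-6959-3p (chr15:89305658-89305679, minus strand).

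For 8 of the 177 entries the 3p arm ended exactly with the intron and the hairpin began within 5 bases of its start, the plain mirtron form. Among them were miR-7091-3p (chrX:74274027-74274047, minus strand, a 79-base intron of Dnase1l1) and miR-6944-3p (chr13:55477681-55477703, minus strand, a 96-base intron of Dbn1, which encodes the actin-binding protein drebrin). The hairpin of miR-6944 (chr13:55477681-55477776, minus strand) is shown in full, since it runs from the GU of the splice donor to the AG of the acceptor. The 3p arm is in capitals and the rest in lower case.
Mir6944: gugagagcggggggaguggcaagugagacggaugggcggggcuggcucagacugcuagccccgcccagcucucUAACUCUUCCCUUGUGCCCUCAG

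Most of the 3p arms had the end that a splice acceptor gives. Of the 177, 138 (78.0%) ended in AG and 120 (67.8%) in CAG, against 56 of 487 (11.5%) ending in AG among the other 3p entries of the table with a sequence. The 3′ end coincided with an annotated intron end for 136 (76.8%), against 21 of those 487 (4.31%), and for 0 of 176 5p entries of the same numbers. A further 33 lay within 5 bases of one, and 8 did not, among them miR-6936-3p (chr11:120624827-120624847, minus strand) and miR-6927-3p (chr11:97677106-97677126, plus strand). All 177 lay within an annotated intron, against 57.5% of the other 3p entries, and 28 of them also lay wholly within an exon of some transcript. Of the 136 at an intron end, 37 had an intron of at most 150 bases, and the median intron length was 522 bases. Pyrimidines made up a median of 72.2% of the arm, against 54.5% in the other 3p entries and 31.8% in the 5p arms of the block. By these measures most of the arms sat at a splice acceptor, while hairpins that fill the whole intron were few.

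**Figure D1:**
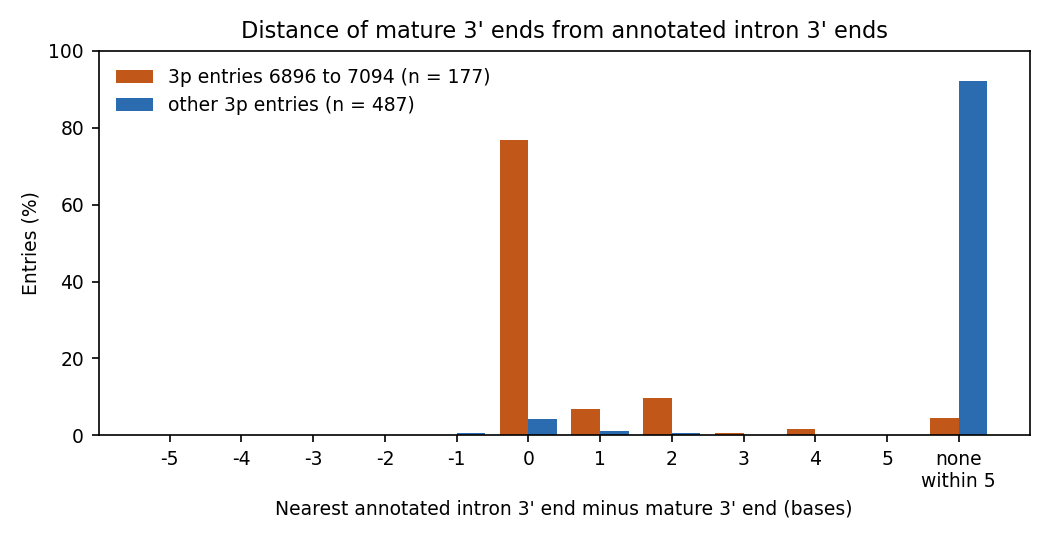
Share of entries (%) by the distance in bases between the mature 3′ end and the nearest annotated intron 3′ end, for the 177 3p entries of the block and the 487 other 3p entries with a sequence. The bar at 0 holds 76.8% of the block and 4.31% of the others, and 92.2% of the others had no intron end within 5 bases.

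Sequences within the block were diverse. The 177 arms held 169 different seeds, and 162 had a seed that no other of them had. The remaining 15 formed 7 groups, such as miR-6927-3p with miR-6945-3p (seed CUGAGCU), and none of the 15 was called in the comparison of hemispheres at 24 h. No arm shared more than 14 consecutive bases with another entry that has a sequence, and 2 arms, miR-6967-3p and miR-7094-3p, had 2 places in the genome each. How the authors counted reads that match several places was not stated.

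One entry dominated the block. On average 37.6% of its summed CPM was miR-7046-3p, with 21.1% to 57.6% in single libraries, and its mean level was 2568 CPM. Next came miR-6927-3p (331 CPM), miR-6944-3p (221 CPM), miR-6979-3p (155 CPM), miR-6909-3p (152 CPM), miR-7087-3p (143 CPM) and miR-7045-3p (139 CPM). The order was completed to 10 by miR-6946-3p (120 CPM), miR-6941-3p (96.3 CPM) and miR-7058-3p (92.8 CPM), the last from a 75-base intron of Lat that its hairpin fills. These means cover all 27 libraries. In sham, miR-7045-3p had 36.1 ± 7.36 CPM and miR-6941-3p 27.8 ± 10.2 CPM, so their places among the 10 come from the ipsilateral libraries. Levels of different miRNAs are compared per read, and ligation bias between sequences was not tested.

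By its summed level the block had its highest group mean in ipsilateral cortex at 24 h. Its summed level was 5358 ± 111 CPM in sham (SD, n = 3) and 5149 ± 459 CPM in contralateral cortex at 24 h. In ipsilateral cortex at 24 h it was 11236 ± 5735 CPM, with 17653, 9446 and 6609 CPM in replicates 1, 2 and 3. Each of these 3 libraries was above the 3 sham and the 3 contralateral 24 h libraries, which reached 5477 and 5455 CPM. Without miR-7046-3p the sum was 5679 ± 1575 CPM, against 3606 ± 180 CPM in contralateral cortex. At earlier times the ipsilateral sums were 6605 ± 896 CPM at 3 h, 5825 ± 155 CPM at 6 h and 7264 ± 1688 CPM at 12 h. Since these are bulk samples, more cells of a type that holds an miRNA and more of it per cell cannot be told apart. Whether all the reads counted for these intronic arms were mature miRNA was not tested.

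The comparison of hemispheres asked which members differ between occluded and opposite cortex. At 24 h, 21 of the 175 tested members rose in ipsilateral cortex and none fell (edgeR's quasi-likelihood test, Benjamini-Hochberg adjusted p under 0.05 over all 1470 entries tested). That is 12.0% of the members, against 11.8% higher calls over all entries tested, and none lower against 1.43%, so the share of higher calls was that of the whole table. No lower member was called by DESeq2 either, and 35 of the 175 had an unadjusted p under 0.05 in either direction. Of the 175, 33 had 3 ipsilateral libraries all above the 3 contralateral ones (16.3% over all entries), and 6 had them all below (12% over all entries). The median log2 difference was 0.27, against 0.08 over all entries, and scaling by library totals alone moved the latter to 0.57. All 21 kept their call under that scaling. The filter on low counts can pass a member because it is high in 1 group, so these counts describe tested members only.

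The largest rise was that of the Tmem120a member. In miR-7034-3p the 3 ipsilateral libraries had 331, 141 and 55.6 CPM, and the contralateral ones 2.83, 3.37 and 9.34 CPM. Every ipsilateral library was thus far above the contralateral ones and the 3 sham libraries, which had 4.37 to 9.09 CPM. The log2 fold change was 5.12 ± 0.82 (SE, edgeR adjusted p = 9.00e-05). In miR-7045-3p, the Chd4 member, levels were 784, 516 and 309 CPM against 36.8, 27.8 and 57.2 CPM. Here too the groups did not overlap, and the log2 fold change was 3.73 ± 0.64 (edgeR adjusted p = 0.000197).

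For miR-6941-3p, the Jag2 member, ipsilateral libraries had 840, 233 and 155 CPM and contralateral ones 39.6, 30.3 and 72.4 CPM. Replicate 1 was the highest by far, the groups did not overlap, and the log2 fold change was 3.11 ± 0.63 (edgeR adjusted p = 0.000888). The Dnase1l1 mirtron miR-7091-3p had 279, 81.3 and 31.7 CPM against 7.54, 8.42 and 15.2 CPM. Its groups were also separate (log2 fold change 3.67 ± 0.70, edgeR adjusted p = 0.000478). The Sbf1 member miR-6959-3p had 148, 86.8 and 37.9 CPM against 11.3, 6.73 and 7.01 CPM, again with no overlap and with replicate 1 highest (3.43 ± 0.55, edgeR adjusted p = 8.32e-05).

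A more even rise was seen in miR-7009-3p, the Anxa5 member. Its ipsilateral libraries had 148, 74.3 and 144 CPM and its contralateral ones 16.0, 20.2 and 16.3 CPM, with sham between 14.9 and 21.9 CPM. Replicates 1 and 3 were nearly level here, and the log2 fold change was 2.79 ± 0.53 (edgeR adjusted p = 0.000478). The GC-rich miR-6936-3p (85.7% G or C) had 122, 47.2 and 32.5 CPM against 7.54, 9.26 and 8.17 CPM. Its log2 fold change was 3.00 ± 0.56, and for the Srebf1 member miR-6921-3p it was 2.54 ± 0.47, from 55.3, 32.0 and 24.7 CPM against 7.54, 8.42 and 2.34 CPM. In both, all ipsilateral libraries were above all contralateral and sham libraries.

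Among the rest of the 21, those named had log2 fold changes from 1.38 to 3.12. The upper end was miR-6918-3p (an intron of Nipsnap1) with 3.12 ± 0.69, then miR-7071-3p (Heatr3) with 2.79 ± 0.59, miR-7044-3p (Rasgef1a) with 2.58 ± 0.51 and miR-7031-3p (Sh2b3) with 2.57 ± 0.62. In the middle stood miR-7075-3p (an intron of the telomere-binding factor gene Terf2) with 2.45 ± 0.55, miR-7032-3p (Hip1r) with 2.04 ± 0.52 and miR-7011-3p (Sema4a, a semaphorin) with 2.03 ± 0.39. At the lower end were miR-6958-3p (Dennd6b) with 1.64 ± 0.38, miR-7093-3p (Armcx3) with 1.47 ± 0.38, miR-7036b-3p with 1.44 ± 0.48 and miR-6974-3p (an intron of the lymphotoxin alpha gene Lta) with 1.38 ± 0.46. Of the 21 called, 16 had a contralateral mean under 15 CPM, as had 132 of the 175 tested. Among the 21, 15 had a rise of at least 4-fold, and 19 had groups that did not overlap. Of the called arms, 17 of 21 ended at an annotated intron end, against 119 of the 156 other arms with a sequence, tested or not.

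The most abundant member was called with overlapping groups. In miR-7046-3p the ipsilateral libraries had 10173, 4885 and 1614 CPM and the contralateral ones 1743, 1663 and 1224 CPM. Replicate 3 of the ipsilateral group lay within the contralateral range and replicate 1 far above it. The log2 fold change was 1.85 ± 0.44 (edgeR adjusted p = 0.00345), and without ipsilateral replicate 1 it was 1.08 with an edgeR adjusted p of 0.138.

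That library mattered for other members too. Ipsilateral replicate 1 was the highest of its group for 20 of the 21 called members, and without it 15 of the 21 were called. Beside miR-7046-3p, the calls lost without it were those of miR-6958-3p (edgeR adjusted p = 0.082), miR-7093-3p (0.267), miR-6974-3p (0.248), miR-7036b-3p and the lowest of the 21, miR-6919-3p, which is named here only for this loss. Without ipsilateral replicate 2 the call of miR-7032-3p was lost (edgeR adjusted p = 0.0888), with those of miR-6974-3p and miR-7036b-3p. The calls of miR-6974-3p, miR-7036b-3p and miR-6919-3p were also lost without contralateral replicate 1 or 2, with RLE size factors and with DESeq2.

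**Figure D2:**
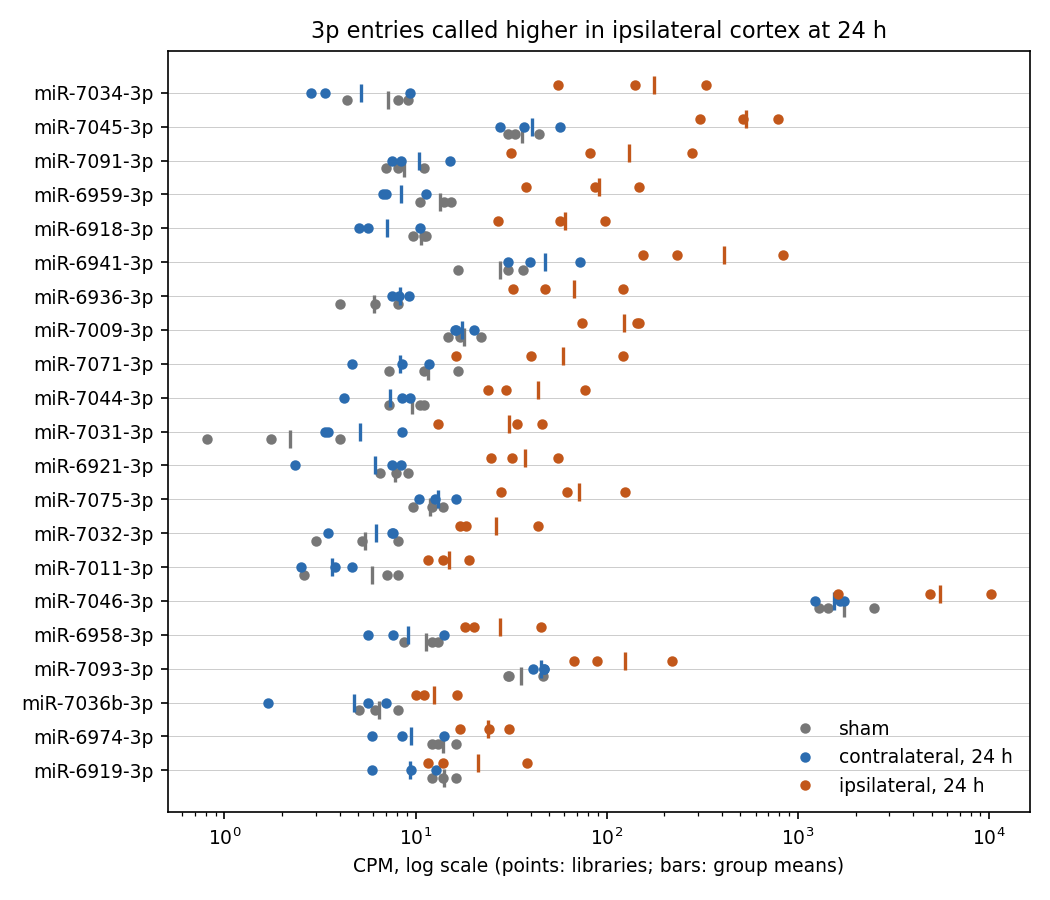
CPM (log scale) of the 21 called members at 24 h, with points for the 3 libraries of sham, contralateral and ipsilateral cortex and bars for group means, ordered by log2 fold change. The ipsilateral points stand clear of the contralateral ones for 19 of the 21, while those of miR-7046-3p (1614 to 10173 CPM) and miR-6919-3p overlap them.

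Entries that match ribosomal RNA precursors rose in the same libraries. The 3 such entries (miR-712-5p, miR-712-3p and miR-6240) summed to between 42.4 and 93.4 CPM in contralateral cortex at 24 h. In ipsilateral cortex they summed to 4643, 2028 and 1633 CPM in replicates 1, 2 and 3, the same order of libraries as the summed level of the block, and 2 of the 3 were called higher (edgeR). At 12 h they summed to 247, 178 and 3078 CPM. The 4 neuronal miRNAs summed to between 67414 and 99875 CPM in ipsilateral cortex at 24 h. In contralateral cortex the sum lay between 105495 and 159996 CPM. Their median log2 difference was -0.52, and none of the 4 was called (edgeR). The fall was not particular to them. Other cell type lists had medians of -0.60 (oligodendrocyte), -0.58 (erythrocyte), -0.32 (leukocyte and microglia), -0.18 (epithelium) and 0.16 (choroid plexus). With 1 tested entry each, endothelium had -0.61 and muscle -0.83. The part of ribosomal entries or of cell types in the rises of the members was not tested. Of 6 entries of mirtrons outside the block (both arms of miR-877, miR-1224 and miR-702), 5 were tested. None was called at 24 h by edgeR, where their median log2 difference was -0.25 and the smallest unadjusted p was 0.145.

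Of the 10 members highest on average, 7 had no call at 24 h, and the smallest edgeR adjusted p among these was 0.114. That value belonged to miR-6944-3p, the drebrin mirtron. Its level was 236 ± 34.2 CPM in sham, 218 ± 45.1 CPM in contralateral and 136 ± 34.4 CPM in ipsilateral cortex at 24 h (SD, n = 3). The single ipsilateral libraries had 97.0, 150 and 161 CPM, all below the contralateral ones with 190, 270 and 194 CPM. The log2 difference was -0.68 ± 0.27, and with the day of surgery as a replicate block it was -0.67 and passed the edgeR test (adjusted p = 0.0279). Under scaling by library totals alone it was -0.20 (edgeR adjusted p = 0.613).

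Abundant members without a call differed in how much their libraries varied. In miR-7058-3p, the Lat mirtron, the group means lay between 82.0 and 110 CPM. In miR-6927-3p (means 136 to 529 CPM) the libraries of 1 group could differ severalfold, with 422, 91.7 and 463 CPM in sham. The Sidt2 member miR-7087-3p had 210, 31.5 and 125 CPM in the same sham libraries and miR-6979-3p had 235, 34.1 and 174 CPM. In all 3 of these, sham replicate 2 was the low one, and ipsilateral replicate 2 at 12 h was low as well (99.4, 40.5 and 36.8 CPM).

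The 5p arms come from the opposite side of the same hairpins. Of 168 tested 5p entries, 33 rose at 24 h (edgeR, against the same 11.8% over all entries), with a median log2 difference of 0.53. Both arms were in the table for 200 hairpins and tested for 148. Among these 148, both arms were called for 2 hairpins, only the 3p arm for 15 and only the 5p arm for 27. Thus 11.8% of the hairpins with a called 3p arm had a called 5p arm, where 29 of all 148 did, and 6.90% of those with a called 5p arm had a called 3p arm, where 17 of all 148 did. Whether the calls on both arms overlap less than by chance was not tested. Over the 148 hairpins the log2 differences of the arms had a Spearman rho of -0.04, where all points share the same 6 libraries.

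The hairpins with both arms called were miR-7045 and miR-7011. For miR-7045-5p the level went from 6.64 ± 1.54 CPM in contralateral to 40.3 ± 32.6 CPM in ipsilateral cortex, a log2 fold change of 2.57 ± 0.49. For miR-7011-5p it went from 11.1 ± 8.58 to 78.9 ± 52.3 CPM, a log2 fold change of 2.86 ± 0.57. By contrast, the 5p arm of miR-7091 had 18.9 ± 16.3 and 14.4 ± 3.68 CPM, that of miR-6959 had 12.9 ± 2.19 and 11.3 ± 2.18 CPM, and that of miR-7044, an arm of 101 CPM on average, had 81.2 ± 27.2 and 81.2 ± 37.7 CPM. Their log2 differences were -0.38 ± 0.47, -0.20 ± 0.34 and 0.00 ± 0.44, and none passed the edgeR test. For 4 called members, miR-7034-3p, miR-6941-3p, miR-6936-3p and miR-7009-3p, the 5p arm was too rare to be tested, with at most 4.83 CPM on average.

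In level, neither arm prevailed over the block: the 3p arm was the higher for 107 of 200 hairpins, and its median share of both arms was 52.1%. Single hairpins were lopsided. The 3p arm was at least 10 times the 5p arm for 10 hairpins, led by miR-7046 (99.6% in the 3p arm), and the reverse held for 6.

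**Figure D3:**
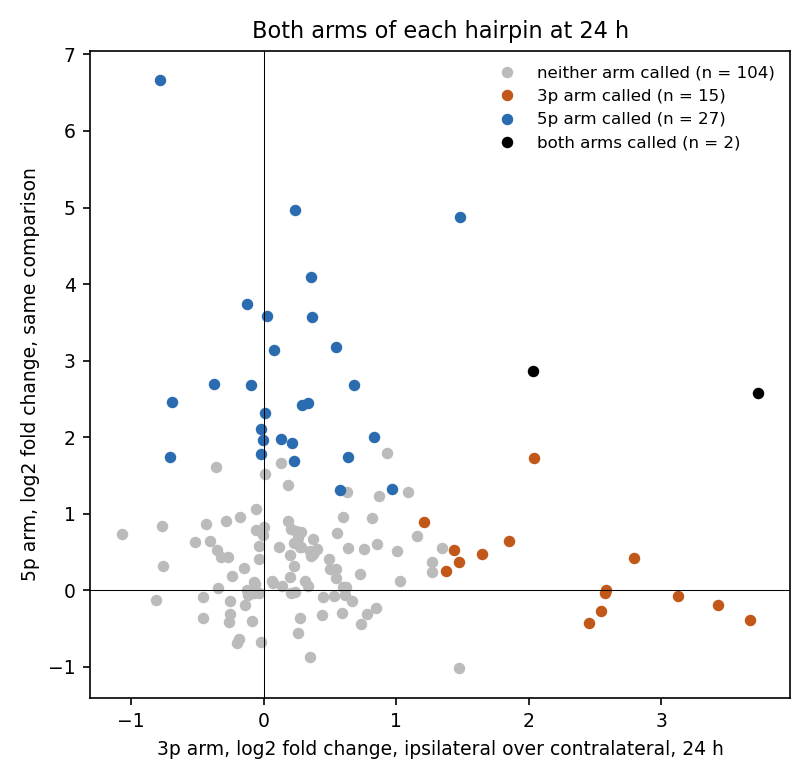
Log2 fold change of ipsilateral over contralateral cortex at 24 h for the 3p arm (x axis) and the 5p arm (y axis) of the 148 hairpins with both arms tested, coloured by which arm was called. The called 3p arms (15 alone) spread along the x axis, the called 5p arms (27 alone) along the y axis, and 2 hairpins lie high on both.

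At 12 h, 7 members rose in ipsilateral cortex and none fell, 4% of the 175 against 4.35% higher calls over all entries tested (edgeR). Lower calls were 0 by DESeq2 too, and 22 members had an unadjusted p under 0.05 in either direction. All 7 were called at 24 h as well: miR-7034-3p (log2 fold change 4.22 ± 0.85), miR-7091-3p (3.47 ± 0.83), miR-6918-3p (3.10 ± 0.74), miR-7009-3p (2.78 ± 0.54), miR-6941-3p (2.71 ± 0.64), miR-7045-3p (2.51 ± 0.62) and miR-7044-3p (2.06 ± 0.56). The level of miR-7045-3p was 140, 83.5 and 591 CPM in ipsilateral and 46.0, 43.7 and 53.3 CPM in contralateral cortex. For 14 of the 175, including these 7, all ipsilateral libraries were above all contralateral ones (5.99% over all entries). For 8 they were all below, with the share over all entries not given here. Replicate 3 was the highest ipsilateral library for all 7 members, and without it none of the 7 was called. It was also the library with 3078 CPM of entries that match ribosomal RNA. Leaving out contralateral replicate 1, 2 or 3 left 3, 2 and 2 calls, and without ipsilateral replicate 2 there were 13.

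At 3 h and 6 h no member passed the edgeR test, as no entry of the table did (0%). At 3 h, 12 members had an unadjusted p under 0.05 and DESeq2 called 1, miR-7009-3p. Without ipsilateral replicate 2 this member was also called by edgeR. At 6 h, 9 had an unadjusted p under 0.05 and DESeq2 called 0. All 3 ipsilateral libraries were above the contralateral ones for 11 members at 3 h (6.39% over all entries) and for 20 at 6 h (7.48% over all entries). They were all below for 4 members at either time, with the share over all entries not given here. The 3 h libraries of miR-7009-3p had 196, 44.2 and 89.6 CPM in ipsilateral and 22.9, 16.2 and 18.2 CPM in contralateral cortex. Its groups did not overlap, with a log2 difference of 2.52 ± 0.51 and an edgeR adjusted p of 0.0688. At 6 h it had 23.9, 39.6 and 44.8 CPM against 11.0, 13.8 and 16.4 CPM, so that the Anxa5 member was higher in all ipsilateral libraries at every time.

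**Figure D4:**
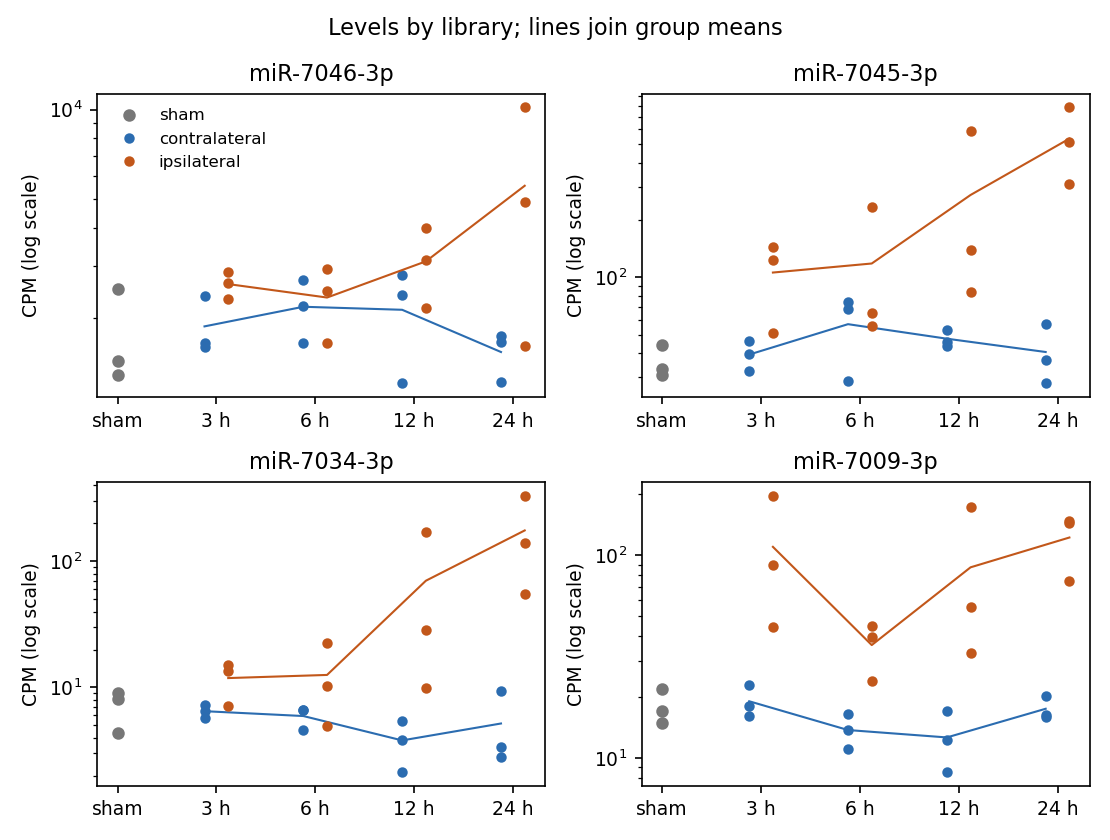
CPM (log scale) in each library of miR-7046-3p, miR-7045-3p, miR-7034-3p and miR-7009-3p in sham and, at 3, 6, 12 and 24 h, in contralateral and ipsilateral cortex, with lines joining group means. The ipsilateral means of miR-7034-3p went from 11.9 CPM at 3 h to 176 CPM at 24 h, and miR-7009-3p already had a mean of 110 CPM at 3 h.

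Whether the difference between hemispheres changed over the 4 times was tested jointly. No member passed (edgeR), and 0.612% of all entries did. The smallest adjusted p was 0.0723, for miR-6959-3p. An unadjusted p under 0.05 was found for 16 members, and DESeq2 called 3, miR-6959-3p, miR-7034-3p and miR-7091-3p. By edgeR 2 members were called without ipsilateral 12 h replicate 2, 3 without ipsilateral 12 h replicate 3 and 2 without ipsilateral 24 h replicate 3. The group means of miR-6959-3p in ipsilateral cortex were 17.2 ± 5.63 CPM at 3 h, 15.6 ± 2.07 CPM at 6 h, 47.4 ± 36.3 CPM at 12 h and 91.0 ± 55.3 CPM at 24 h. In contralateral cortex they stayed between 8.35 and 18.2 CPM.

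Against sham, which shares no library with the contralateral groups, 18 members rose in ipsilateral cortex at 24 h and none fell (edgeR), with 11.3% higher and 1.36% lower calls over all entries. DESeq2 called 18 higher and 1 lower, and 37 members had an unadjusted p under 0.05. The lower one was miR-6944-3p, which edgeR also called with the replicate block but not with library totals alone. All 18 were among the 21 called against contralateral cortex. Both comparisons use the same ipsilateral libraries, so they are not independent. The largest differences were those of miR-7034-3p (4.60 ± 0.78), miR-7091-3p (3.90 ± 0.70), miR-7045-3p (3.89 ± 0.65), miR-6941-3p (3.87 ± 0.66), miR-7031-3p (3.83 ± 0.71) and miR-6936-3p (3.43 ± 0.57). Without ipsilateral replicate 1, 11 members were called, and without sham replicate 2, the library with the epithelial miRNAs, 16 were.

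At 12 h against sham, 9 members rose and 3 fell (edgeR), with 4.76% higher and 0.68% lower calls over all entries. The largest rises were those of miR-7031-3p (3.34 ± 0.75), miR-7034-3p (3.29 ± 0.76), miR-7045-3p (2.91 ± 0.62), miR-6941-3p (2.33 ± 0.62), miR-7009-3p (2.28 ± 0.52) and miR-6936-3p (2.27 ± 0.58). The members that fell were miR-7042-3p, with 2.06, 3.68 and 4.41 CPM against 8.11, 11.4 and 17.2 CPM in sham (-1.78 ± 0.42, edgeR adjusted p = 0.00949), miR-7005-3p (-2.13 ± 0.60) and miR-7026-3p (-1.31 ± 0.38). They were among 20 of the 175 with all ipsilateral libraries below all sham libraries (8.64% over all entries). For 11 members all were above, with the share over all entries not given here. No call of the 12 was left without ipsilateral replicate 3, and 1 member was called without sham replicate 2, 4 without sham replicate 3 and 7 without sham replicate 1. With the replicate block the calls of miR-7026-3p (edgeR adjusted p = 0.0528) and miR-7075-3p (0.0932) were lost. The call of miR-7026-3p was kept in 1 of 13 alternatives, and library totals alone left 5 of the 12 calls. That of miR-7005-3p was lost in all 6 fits with a library left out, and that of miR-7042-3p in 3 of the 6.

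At 3 h and 6 h against sham, no member and 0% of all entries passed the edgeR test. At 3 h, 16 had an unadjusted p under 0.05 and DESeq2 called 1, again miR-7009-3p (log2 difference 2.61 ± 0.52, edgeR adjusted p = 0.0552), which was called with the replicate block too and, by edgeR, without ipsilateral replicate 2. At 6 h, 7 had an unadjusted p under 0.05 and DESeq2 called 0.

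Contralateral cortex did not differ from sham in any member by edgeR at 3, 6, 12 or 24 h, as in the whole table (0% called at each time). Unadjusted p-values under 0.05 were found for 3, 6, 10 and 5 members, and DESeq2 called 0 at each time. At 6 h, 21 of the 175 had all contralateral libraries below all sham libraries (6.19% over all entries), and at 12 h 23 had (7.76% over all entries). All were above sham for 2 members at 6 h and 4 at 12 h. At 3 h, 12 members had them all above and 2 all below, and at 24 h 4 and 7 had. Shares over all entries are not given here for these counts.

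A few members were highest on 1 day of surgery whatever the group. Over the 172 members with a mean of at least 5 CPM, the highest replicate was a median of 1.85 times the lowest within a group. In 5 members, replicate 1 was the highest library in all 9 groups, 2.91% against 2.35% of the 1491 entries of the table at that level. Replicate 2 was the highest in all 9 groups for 1 member, miR-6946-3p, 0.58% against 1.41% of the entries, and replicate 3 for none. These members were picked after their values were seen. The clearest was miR-7074-3p, from an intron of Slc12a4, with 76.5 to 158 CPM (median 114) in the 9 replicate 1 libraries. In replicate 2 it had 28.8 to 41.4 CPM and in replicate 3 26.3 to 46.4 CPM, so replicate 1 stood above both others, whose ranges overlapped. Similarly, miR-6898-3p had 44.4 to 84.0 CPM in replicate 1 and at most 26.2 CPM in the others. In miR-6991-3p (19.1 to 61.7 CPM in replicate 1, 9.87 to 27.4 CPM elsewhere in all) and miR-6957-3p (19.4 to 41.1 CPM in replicate 1) the ranges overlapped. The fifth, miR-6945-3p, averaged 14.1 CPM.

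**Figure D5:**
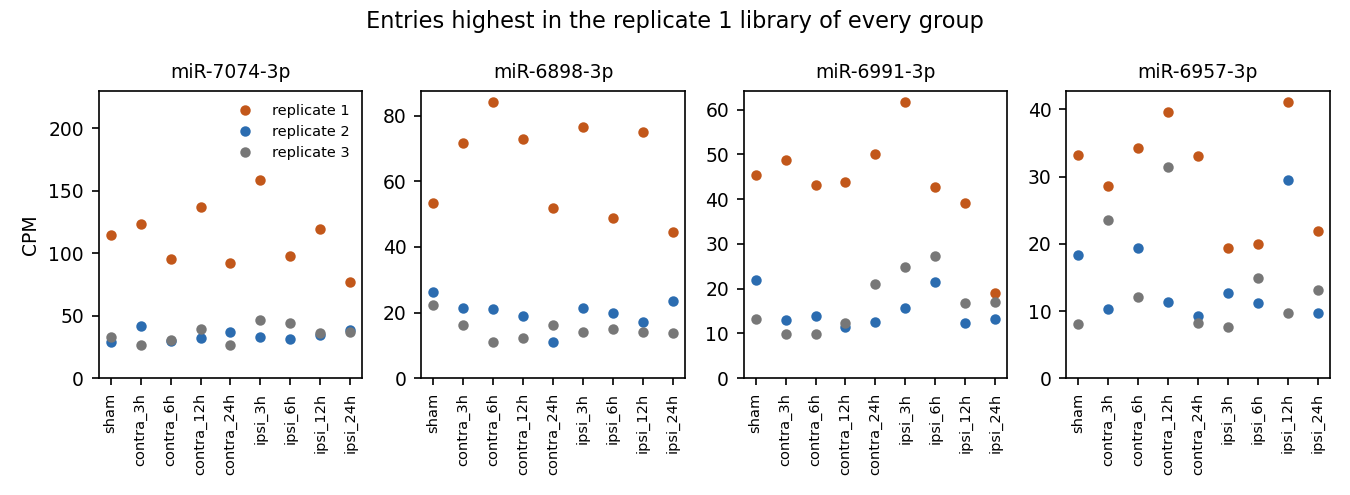
CPM of miR-7074-3p, miR-6898-3p, miR-6991-3p and miR-6957-3p in each of the 9 groups, with a point for each replicate number. The replicate 1 point is the highest in all 9 groups for each, between 76.5 and 158 CPM for miR-7074-3p.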

How the data were processed

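Small RNA from mouse cortex was measured in 27 libraries. Raw counts, deposited by the authors as 1 table, cover 1842 mature miRNAs. The submitters' processing notes name Novoalign and edgeR, with no role given. The annotation release and the handling of reads with several matches were not stated. All columns were used.

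Counts were tested with edgeR 4.0.16 in R 4.3.3 (quasi-likelihood F test, TMM, robust dispersions, a mean per group, 18 residual degrees of freedom). After filterByExpr 1470 entries were left, and p-values were adjusted over these by the Benjamini-Hochberg method. A call is an adjusted p under 0.05. Tested on simulated counts of the same 1470 entries, the 24 h comparison of hemispheres found 15% of the 100 made to differ 2-fold, 85% of the 100 made to differ 4-fold, and 8 that were not changed. The simulated counts had no effect of the day of surgery, no outlying library and the same spread in every group. The shares found in the real data may therefore differ. Alternatives were a replicate block, other scalings, DESeq2 1.42.0, other filters, fewer groups and each library left out.

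The series' design text ties replicate numbers to days of surgery, so they pair libraries. As a check, the mean correlation of deviations from the group means was 0.23 for the 108 same-numbered pairs in different groups (lowest -0.51) and -0.12 for the 216 others. The deviations within a group sum to 0, so the second value largely follows from the first. No pair of replicates agreed within sampling noise.

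Sequences and positions came from RefSeq (GRCm38.p6), and introns from GENCODE M21. An arm was at an intron end only when its 3′ end fell exactly on that end, on the same strand; ends up to 5 bases away were counted apart.

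Named were up to 20 members called between hemispheres at any time by size of fold change, up to 6 per direction against sham, the 10 most abundant, calls of the test over time, their 5p arms, and those next to 5 CPM. Members and lists were chosen with earlier results of these data known. Python 3.11.15 was used for sequences and plots.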

Additional observations from a re-analysis of the deposited data

How the results depend on the processing

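The count of members called at 24 h between hemispheres lay within 1.5 times of 21 under every alternative run (18 with RLE size factors and with DESeq2, 23 with the replicate block, 24 with library totals alone, 15 to 24 with a library left out). All 15 calls made without ipsilateral replicate 1 were among the 21. At 3 h the count of 0 between hemispheres became 1 with RLE size factors, DESeq2, no filter on low counts or only the groups compared (0 to 1 with a library left out). Against sham at 3 h it became 1 with the replicate block, RLE size factors, DESeq2, no filter or only the groups compared (0 to 1 with a library left out). At 12 h the 7 calls between hemispheres became 0 with only the groups compared, where 69 members were tested (0 to 13 with a library left out). The 12 calls against sham became 5 with library totals alone and 0 with only the groups compared (0 to 14 with a library left out). With only the groups compared, miR-6918-3p, miR-7034-3p, miR-7044-3p and miR-7091-3p did not pass the filter on low counts for the hemispheres. Nor did miR-6936-3p, miR-7005-3p, miR-7031-3p and miR-7042-3p for sham. In the main fit that filter used the libraries of all 9 groups. The cause of each change was not tested. At 24 h against sham, 11 to 23 members were called with a library left out and 23 with the replicate block. The test of change over time gave 3 calls with DESeq2 and 0 to 3 with a library left out. The direction was followed in the alternatives for members called at 12 or 24 h and for miR-6944-3p, and none of these changed sign. Where a replicate was left out, its group kept 2 libraries. The replicate block ended the calls of miR-7026-3p and miR-7075-3p at 12 h against sham and no other named call. Depth limits the rare members: 103 of the 201 averaged under 10 CPM.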

Other observations

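A few members carry the seed of a miRNA outside the block, where the seed is the part that sets most target pairing. This was so for 13 of the 177 arms with a sequence, and the 3 given here were chosen for the miRNAs they share it with. The Helz member miR-6932-3p and the Smurf1 member miR-7039-3p shared the seed CUGUUCU with miR-26a-2-3p and miR-26b-3p. The first was at 83.3 ± 12.3 CPM in sham, 79.5 ± 48.3 CPM in contralateral and 59.6 ± 7.38 CPM in ipsilateral cortex at 24 h (SD, n = 3). The second was at 5.21 ± 2.50, 10.7 ± 1.51 and 13.3 ± 7.23 CPM in the same groups. The seed UGUGCUU of miR-7002-3p is that of miR-218-5p, a miRNA known from neurons, but this member averaged 1.41 CPM and was not tested.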
